A study of Mus musculus with 4 samples.

Results

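Fgfr2 encodes fibroblast growth factor receptor 2, a receptor tyrosine kinase of the cell surface best known from epithelia, limb and skeleton. In the deposited list of N6-methyladenosine (m6A) peaks from mouse natural killer (NK) cells, 22 of 20727 distinct peaks carried the Fgfr2 identifier (ENSMUSG00000030849, chromosome 7, minus strand), and only 1 of the 22 met an Fgfr2 exon. The other 21 met exons of 15 other genes lying 128 to 2720.0 kb from the usual start of Fgfr2, among them Ate1, Tacc2, Bub3, Oat, Fam53b, Abraxas2 and Zranb1. The members were chosen by the gene name in the list, and Fgfr2 was selected on this count, so the counts of exons met are descriptions and were not tested.

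The RNA came from splenic NK cells of C57BL/6 mice, in which NK cells had been expanded by injecting a plasmid that drives IL-15 expression (pLIVE-IL-15), and which were then sorted. Fragmented poly(A) RNA was either precipitated with an m6A antibody or kept as input. The labels give 2 immunoprecipitated and 2 input libraries and name no gene deletion or second treatment. The list holds a single set of values made from the 4 libraries and no value per library, so neither a spread between replicates nor a depth could be given for any value, and no test was possible. How the replicates were combined was not stated in the sources used here. All 9 genes of a fixed NK list (such as Ncr1, Klrb1c and Prf1) carried a peak, against 1 of 3 B cell genes, 2 of 4 T cell genes, 3 of 3 myeloid genes, 2 of 3 epithelial genes and 46.3% of all coding genes. By fold enrichment the order was another. A fold of 5 or more was found in 0 of the 9 NK genes and 0 of the 3 myeloid genes. It was found in 1 of 3 B cell, 2 of 4 T cell and 1 of 3 epithelial genes, against 20.1% of all coding genes. These folds were 31.6 on Cd3g, 30.3 on Cd3e and 7.59 on Cd79a and Krt18. The log10 of the peak-calling p for Krt18 was -1.73. A peak is not a level of expression, so these counts do not check the identity of the cells.

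m6A is a methyl group on adenosine that a METTL3 and METTL14 complex places on mRNA, mostly in a class of 5-base sequences known as DRACH (any base but C, a purine, then A and C, then any base but G), with GGACT as its best known form in DNA letters. In mammalian mRNA the mark is concentrated near stop codons and in 3′ untranslated regions (UTRs), where it influences decay and translation. MeRIP-seq compares fragments bound by the antibody with input, and its fold enrichment is the ratio of the 2 over a window of the transcript. The list gives for each peak that ratio, the log10 of the p-value from peak calling (more negative is stronger) and the assigned gene.

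The sequences below are shown because they mark where the Fgfr2 name and the peaks part. The annotation used here (GENCODE vM21 on GRCm38) may differ from the release with which the authors named the peaks, and every exon, span and start in the text comes from it. It holds 27 Fgfr2 transcripts, 17 of them coding, and a single one, ENSMUST00000124096 (7 exons, 2425 nt, referred to as the long transcript), stretches the gene. The annotation gives it a transcript support level of 5, where 1 is the strongest. The Fgfr2 transcript next in span, ENSMUST00000120187, has level 1. The first 2 exons of the long transcript lie on exons of Ctbp2, which encodes a transcriptional corepressor. An intron of 2908817 nt joins them to Fgfr2 exons. The join, read 5′ to 3′ on the minus strand from the end of exon 2 (chr7:133081757-133081771, lower case) into the start of exon 3 (chr7:130172925-130172939, capitals), is given by the genome as follows.
Long transcript, exon 2 to exon 3: gacgcatttctatcgTGTATCCATCGAGAT
Exon 2 ends at a splice donor of Ctbp2 and the intron begins with GT and ends with AG. All 5 remaining exons are identical to exons of other Fgfr2 transcripts, and the coding sequence of 546 nt begins in exon 3.

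Of the peaks assigned to Fgfr2, 2 held the stop codon of another gene, a count not made for the whole list. These stops are shown with the stop codon in capitals, on the minus strand of GRCm38.
Ate1 (chr7:130394548-130394570): gttcagacacTGAaggcctgcac
Nsmce4a (chr7:130533582-130533604): gctcagtgccTGAtgccagcagc
Among the 19 peaks off Fgfr2 exons with at most 500 exonic nt, 5 held the core GGAC on the strand of the gene they met, at 7 sites. They are shown with 10 bases on either side and the core in capitals, because GGAC is the part that GGACT and its nearest DRACH forms share.
Tacc2 (chr7:130764622-130764645, plus strand): gcatctgatgGGACgtgaacatat
Tacc2 (chr7:130764642-130764665, plus strand): atatgcatcgGGACtcttgcctta
Bub3 (chr7:131570957-131570980, plus strand): tgcagccattGGACacttggtcta
Bub3 (chr7:131571038-131571061, plus strand): ttttgggtagGGACgctttgtatc
Gm16477 (chr7:131614308-131614331, minus strand): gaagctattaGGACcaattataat
Oat (chr7:132557939-132557962, minus strand): aaggagaaacGGACccatctgcgt
Fam53b (chr7:132712367-132712390, minus strand): caggggtcagGGACagatgagccc
Of these 7 sites, 5 match DRACH, and the second of Tacc2 is followed by T and so is a GGACT. The first of Tacc2 and the second of Bub3 are followed by G and fall outside DRACH. A matching sequence shows only that these letters lie in the peak, not that the adenosine carries the mark.

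The annotated span of Fgfr2 ran from chr7:130162451-133123350 on GRCm38, 2960900 nt, the rank 2 span of 55450 annotated genes. The median gene span was 3324 nt over all genes and 17403 nt over coding genes. Without the long transcript, the gene ended at 130266263 and spanned 103813 nt, and the RefSeq model of the gene spanned 104358 nt. A total of 26 peaks overlapped the long span, 22 of them (84.6%) named Fgfr2, whereas a single peak overlapped the span without the long transcript, the RefSeq span or the span of the longest coding transcript (102483 nt). The other 21 Fgfr2 peaks lay outside all 3 shorter spans.

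Over the whole list, 621 of 20706 peaks whose assigned gene is in the annotation (3.0%) met no exon of that gene, against 21 of the 22 Fgfr2 peaks (95.5%). Since Fgfr2 was chosen by this value, nothing more is read from it. The 621 peaks were spread over 435 genes, of which 332 had a single such peak. Fgfr2 alone held 3.38% of them. The next genes in number were Nf1 with 7 peaks and Ccdc106 with 6.

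**Figure D1:**
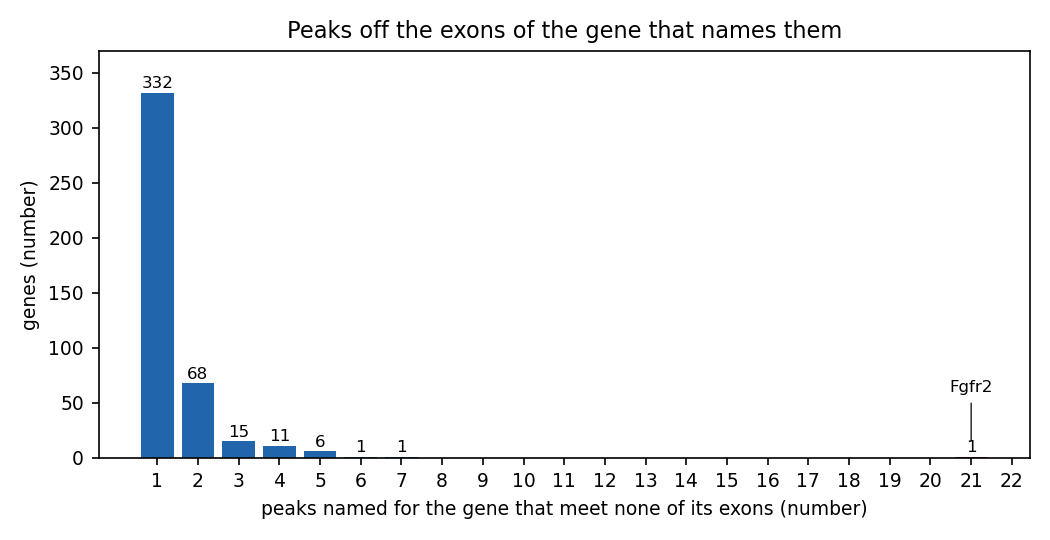
Number of genes (vertical axis) by how many peaks named for the gene meet none of its exons (horizontal axis), over the 435 genes with at least 1 such peak. Fgfr2 stands alone at 21 peaks, and every other gene has between 1 and 7.

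Inside the span, 69 other genes overlapped Fgfr2 (68 wholly), 30 of them coding. Of these 30, 15 had a peak on their exons (50%, against 49.4% of all coding genes in the annotation), but 2 (6.67%) had a peak listed under their own identifier, against 46.3% of all coding genes. The coding genes without a peak on their exons included Plekha1, Htra1, Pstk, Chst15, Lhpp and Ctbp2, as well as the homeobox genes Hmx2, Hmx3 and Nkx1-2. Of the 15 genes met by Fgfr2-named peaks, 14 were coding and 1, Gm16477, was a processed pseudogene. Each of the 21 peaks met exons of exactly 1 gene. Over the list, 588 of the 621 peaks off the exons of their assigned gene met an exon of another gene. How many of these met exactly 1 gene was not counted. Of the 15 genes, 6 were met by 2 peaks and 9 by 1, and 13 had no peak under their own name. The peaks fell on genes of both strands, 11 on plus strand genes and 10 on minus strand genes, while Fgfr2 itself is read from the minus strand.

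**Figure D2:**
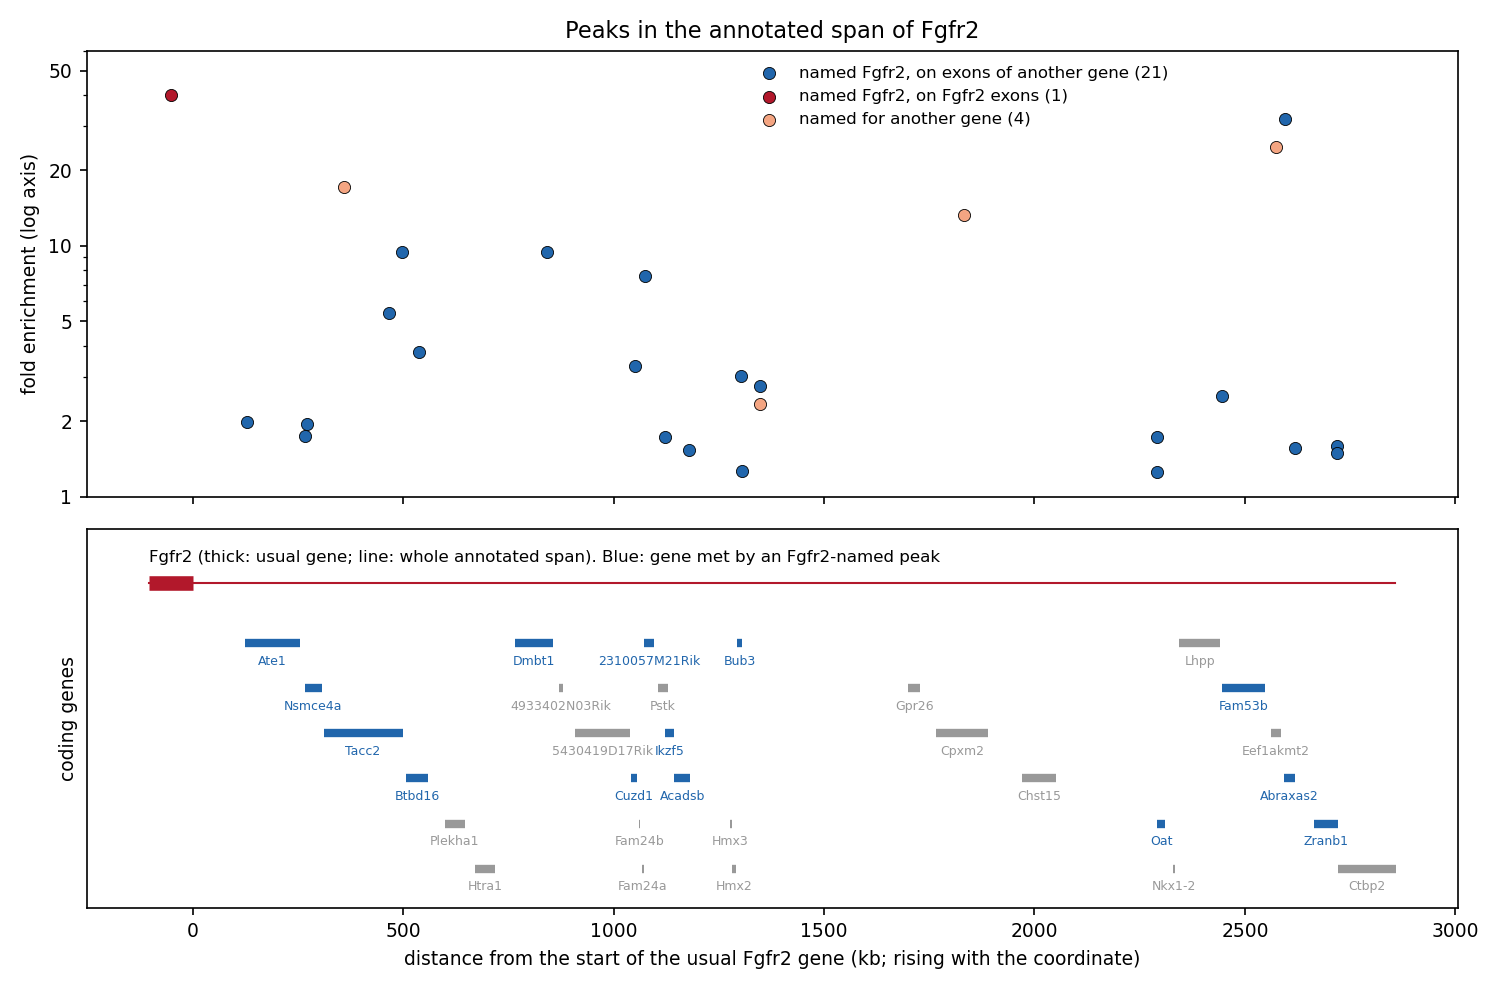
Upper panel, fold enrichment (log axis) of the 26 peaks in the annotated Fgfr2 span against the distance of their centre from the start of the usual gene (kb). Lower panel, the usual Fgfr2 gene, its full annotated span and the coding genes inside it. The only peak on Fgfr2 exons lies over the usual gene at a fold of 39.8, and the 21 others named Fgfr2 begin 128 kb away from it, above genes of other names.

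The 4 peaks of the span that were not named Fgfr2 were a peak of 97274 nt on Tacc2 (fold enrichment 17.1, log10 p -3.33), a peak of 110605 nt on Cpxm2, a carboxypeptidase-like gene (13.3, log10 p -2.50), a peak on Gm16477 (2.34, log10 p -2.17) and a peak on the unnamed gene model Gm45501 (24.7, log10 p -5.04). Each of the 4 held a transcription start of the gene it was named for. Of the 22 Fgfr2 peaks, 1 held a transcription start of Fgfr2, against 27.4% of all peaks for their own assigned gene, and none of the other 21 held a start of any annotated transcript. Thus in the same gene, Tacc2, the peak at the start was listed as Tacc2 and the peaks in later exons were listed as Fgfr2. The same division was seen on Gm16477, where the peak at the start carried its own name and the peak at the end carried that of Fgfr2.

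The peak on Fgfr2 itself covered chr7:130162451-130266218, or 103768 nt of which 9.61% was exonic. It ended 45 nt short of the usual start. It covered 9969 of the 10328 exonic nt of the gene (96.52%), with 4850 nt on coding transcripts. Its fold enrichment was 39.8, the highest of the 22, and its log10 p was -8.56. These values cannot be placed on any exon or site, because the list does not say which exon blocks within a peak were enriched. The same pair of fold and p was listed for 58 peaks of the list. The authors' label placed this peak in a 5′ UTR. With 11 GGACT and 39 GGAC in its exonic part, the sequence does not single out a position either.

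Among enzymes of metabolism and protein modification, Ate1, the arginyltransferase of the N-degron pathway, had a peak over its stop codon (chr7:130394492-130394582, 91 nt, fold 1.99, log10 p -2.94), with the centre 21 nt into the 3′ UTR of ENSMUST00000033139, but in coding sequence on the Ate1 transcript with the longest coding sequence. Acadsb, a mitochondrial short and branched chain acyl-CoA dehydrogenase, had a peak 1661 nt past the stop codon of ENSMUST00000015829 (chr7:131445893-131446043, fold 1.54, log10 p -3.56). Oat, the mitochondrial ornithine aminotransferase, carried 2 peaks in its last exon. The peak nearer to its stop codon (chr7:132557896-132558075, 184 nt past it) had a fold of 1.25 and a log10 p of -3.29, and the other (chr7:132557478-132557627, 617 nt past it, at the annotated transcript end) had a fold of 1.73 and a log10 p of -2.12. On these transcripts all 4 peaks of the enzymes lay in 3′ UTRs, with folds under 2, and the fold of 1.25 on Oat was the lowest of all Fgfr2-named peaks.

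Of the genes with roles at chromosomes and in cell division, Bub3 encodes a spindle checkpoint protein, Nsmce4a a subunit of the SMC5/6 complex and Tacc2 a coiled-coil protein of the centrosome. Bub3 had 2 peaks in the 3′ UTR of its transcript ENSMUST00000207442, at 1014 nt (chr7:131569680-131569799, fold 3.03, log10 p -1.38) and 2287 nt (chr7:131570967-131571057, fold 1.26, log10 p -3.79) past the stop codon. The peak with the higher fold was the one with the weaker p, and its pair of values was listed for 67 peaks in all, whereas the other pair was found once in the list. Nsmce4a had a peak over its stop codon (chr7:130532526-130533649, fold 1.74, log10 p -2.74) that had 240 exonic nt and reached the transcript end. Its second peak (chr7:130538338-130538427, fold 1.95, log10 p -2.73) had 0 nt on a coding transcript and met only other transcripts of the gene.

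Tacc2 had a peak at the transcript end, 346 nt past the stop codon of its transcript ENSMUST00000207376 (chr7:130764545-130764785), with a fold of 9.48 and a log10 p of -2.94. Of the 14 peaks in 3′ UTRs, 2 had a fold of at least 5, this peak and that on 2310057M21Rik, and the Tacc2 peak holds the GGACT shown above. The other Fgfr2-named peak on Tacc2 (chr7:130729778-130734951, fold 5.42, log10 p -4.52) covered 151 exonic nt in exons 7 to 10 of 22 and lay in the coding sequence, although the authors' label for it was 3′ UTR. Of the 15 peaks with that label, the centres of the other 14 did lie in a 3′ UTR of the transcript they were placed on. That transcript was chosen among those with an annotated 3′ UTR.

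Abraxas2 and Zranb1 are both genes of ubiquitin chain removal. Abraxas2 encodes a scaffold of the BRISC deubiquitinase, and Zranb1 a deubiquitinase also called TRABID. Abraxas2 had the highest fold among the 21 peaks off Fgfr2 exons, 32.2 (log10 p -6.79), in a peak of 4790 nt (chr7:132860214-132865003). Of its 840 exonic nt, 41 lay on the coding transcript, in exon 2 of 9, and the rest on other transcripts of the gene, and its pair of values was shared by 60 peaks in all. Its second peak, in the 3′ UTR at 1367 nt past the stop codon (chr7:132884781-132884961), had a fold of 1.56 and a log10 p of -3.13. Zranb1 had 2 peaks in the 3′ UTR of ENSMUST00000106157, 1.59 at 332 nt (chr7:132984179-132984388, log10 p -4.51) and 1.49 at 2186 nt (chr7:132986092-132986182, log10 p -2.07) past the stop codon. On Abraxas2 the wide peak thus had the high fold, and the narrow peak resembled those of Zranb1.

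Ikzf5 and Fam53b encode nuclear regulators, a zinc finger protein of the Ikaros family and a protein of the Wnt and β-catenin pathway, respectively. Fam53b had the strongest p of the 22 peaks, with a log10 p of -14.5 at a fold of 2.51, in its last exon 3351 nt past the stop codon and at the transcript end (chr7:132712082-132712501). Ikzf5 had the narrowest peak, 61 nt (chr7:131388981-131389041), whose centre was 2626 nt beyond the stop codon, and its fold was 1.73 and its log10 p -2.12. The Ikzf5 values were the same pair as on the distal Oat peak and were listed for 5 peaks in all. Both peaks lay far into long 3′ UTRs, 2985 nt in Ikzf5 and 3561 nt in Fam53b.

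Dmbt1, a scavenger receptor-like gene of mucosal surfaces, and Cuzd1, a gene of pancreatic zymogen granules, are not known as NK cell genes. Both had peaks in coding exons. The Dmbt1 peak (chr7:131108478-131109570, fold 9.48, log10 p -1.69) covered 90 exonic nt in exons 42 and 43 of 48, and its pair of values was shared by 845 peaks. The Cuzd1 peak (chr7:131316135-131316224, fold 3.32, log10 p -1.34, a pair listed for 95 peaks) lay in exon 5 of 9. Btbd16 had a peak of 25435 nt (chr7:130790368-130815802, fold 3.79, log10 p -1.31, a pair listed for 199 peaks). Its coding part lay in exons 8 to 11 of 16. These 3 peaks had p-values among the weakest of the 22, together with the Bub3 peak at 1014 nt. Whether these genes were transcribed in the cells cannot be read from the list, which gives no input level. The 2310057M21Rik peak (chr7:131341549-131341999, fold 7.59, log10 p -2.37, a pair listed for 57 peaks) lay 1796 nt into a 3′ UTR of 5350.0 nt. The Gm16477 peak (chr7:131614188-131614425, fold 2.77, log10 p -2.60) covered 29.7% of the pseudogene. A processed pseudogene can share reads with the gene it was copied from, so this value is uncertain.

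**Figure D3:**
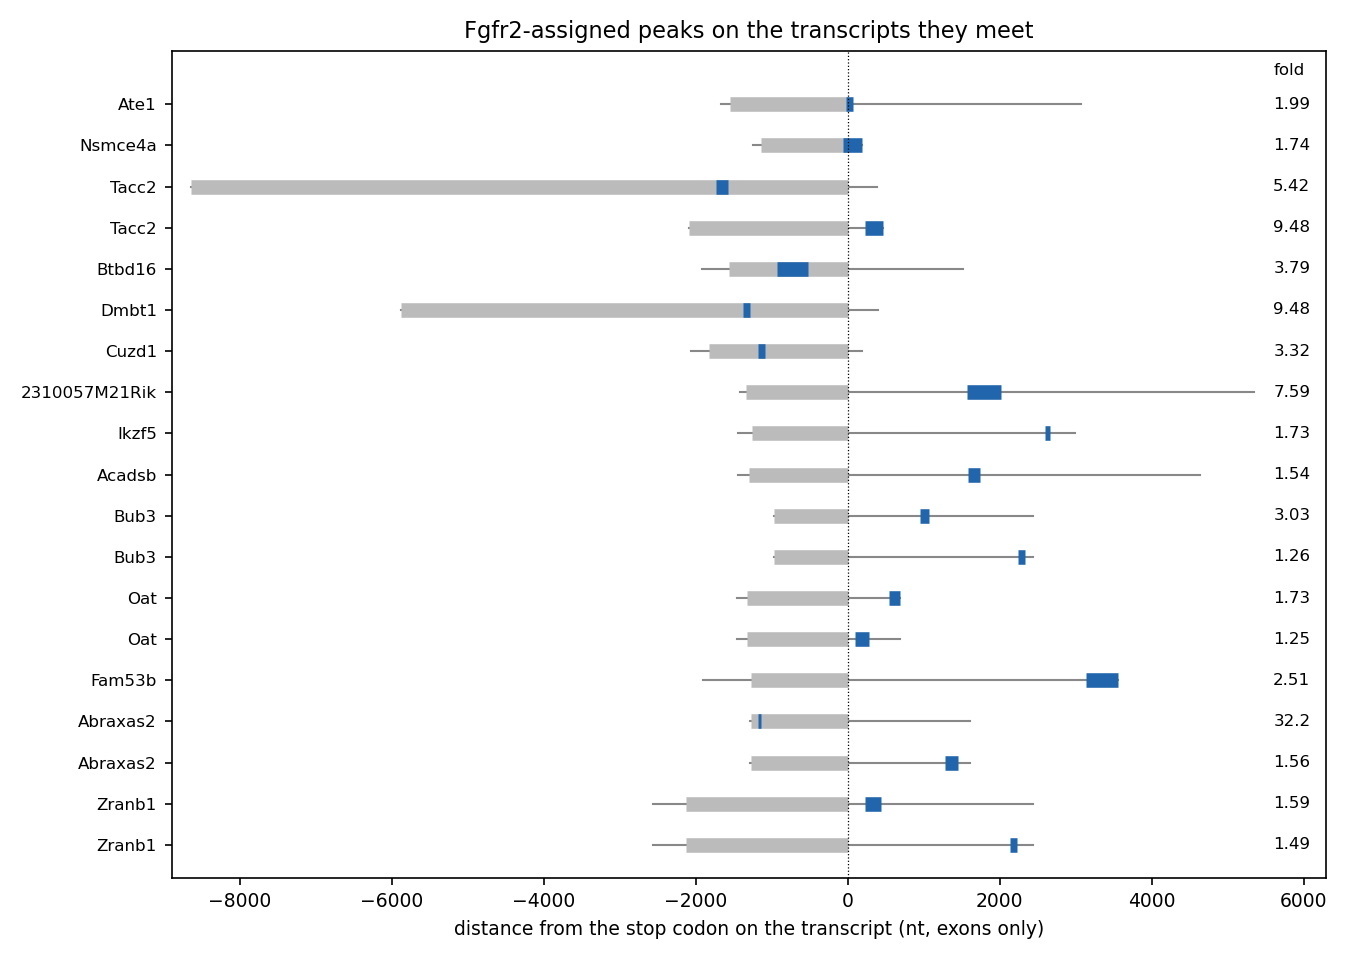
The 19 Fgfr2-named peaks that meet a coding transcript of another gene (blue), drawn on that transcript from its start to its end (grey line; thick grey, coding sequence) by distance from the stop codon in nt, with fold enrichment at the right. Peaks centred in 3′ UTRs number 14 and range from 21 to 3351 nt past the stop codon, and the 5 in coding sequence have folds of 3.32 to 32.2. The highest of these, on Abraxas2, has 41 of its 840 exonic nt on the coding transcript.

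By position on the gene met, 14 of the 21 peaks had their centre in a 3′ UTR, 5 in coding sequence and 2 had no base on a coding transcript. This places each peak, among coding transcripts with an annotated 3′ UTR, on the one with most exonic bases in it. Leaving out transcripts without a 3′ UTR could favour placements in 3′ UTRs. The placement by longest coding sequence had no such limit. On the transcript with the longest coding sequence of each gene, 9 of the 14 stayed in a 3′ UTR, the Ate1 peak lay in coding sequence, and the Acadsb peak, the Bub3 peak of higher fold and both Zranb1 peaks lay outside the transcript or its exons. The 14 in 3′ UTRs had a median fold of 1.73 (range 1.25 to 9.48). Of the 14, 3 were centred within 200 nt of the stop codon. Positions on transcripts were not worked out for the whole list, so these counts cannot be called few or many. The 5 in coding sequence ranged from 3.32 to 32.2, so the position classes overlapped. The highest of these, on Abraxas2, was placed by the 41 of its 840 exonic nt that lay on a coding transcript. The next highest was 9.48, on Dmbt1. The label 3′ UTR was given to 15 of the 22 peaks (68.2%), against 53.3% of all peaks, and the label Exon to 6. Each of the 6 Exon labels named the gene whose exon was met and 0 named Fgfr2, so that in these rows the label and the assigned gene differed. An edge of the peak fell on an annotated transcript end of the gene met in 6 of the 22 peaks (27.3%), against 23.1% of all peaks.

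The fold enrichment of the Fgfr2-named peaks lay below that of the list at the median and at the upper quartile. Their median was 2.25 (interquartile range 1.62 to 5.01), and 1.99 without the peak on Fgfr2 itself, against 2.66 (1.73 to 9.48) over all 20727 peaks. A fold of at least 5 was found in 6 of 22 (27.3%), against 34.6% of all peaks, and a fold under 2 in 11 (50%), against 36.1%. A log10 p below -3 was found in 9 (40.9%), against 61.5%. Only 3, on Fgfr2, Abraxas2 and Tacc2, passed both, against 19.0% of all peaks. The median log10 p was -2.84 (range -14.5 to -1.31), against -4.1. These shares rest on 22 peaks and were not tested.

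**Figure D4:**
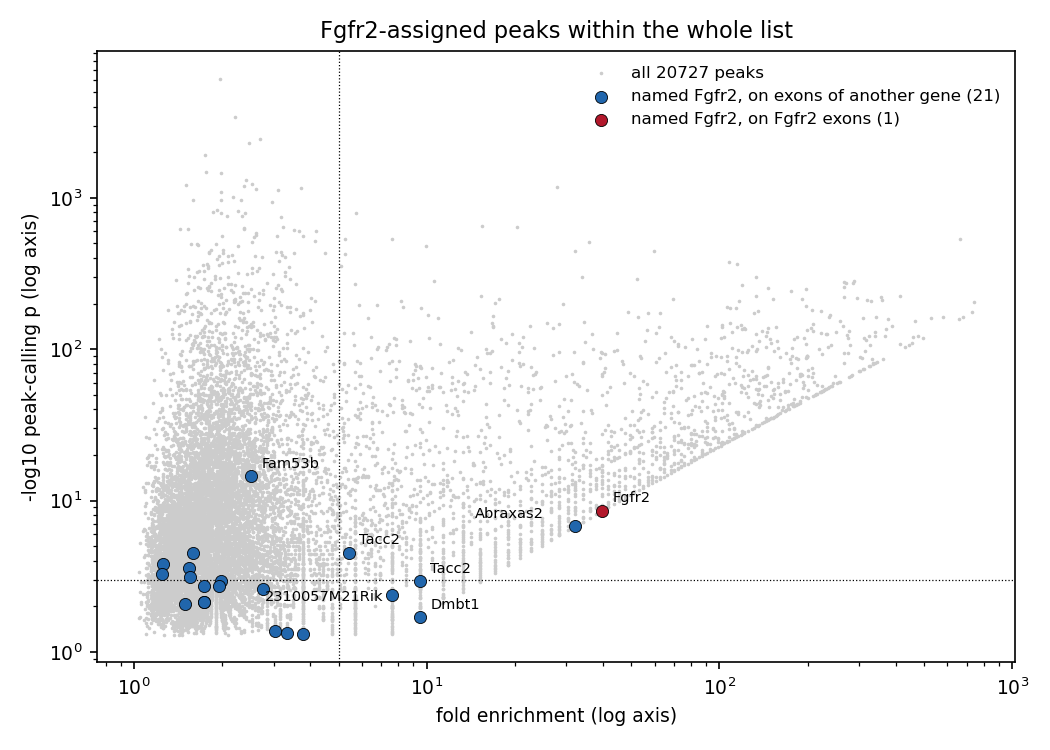
Fold enrichment (horizontal, log axis) against the sign-reversed log10 p of peak calling (vertical, log axis) for all 20727 peaks (grey) and the 22 named Fgfr2 (red, on Fgfr2 exons; blue, on exons of another gene, with the gene met named for folds of at least 5 and for Fam53b). Dotted lines mark a fold of 5 and a log10 p of -3; 3 of the 22 lie beyond both.

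Fold enrichment went with the width of the peak, in the Fgfr2-named peaks as in the list. The 6 peaks over 500 nt had a median fold of 7.45 (range 1.74 to 39.8) and 4 of them reached 5. The 16 of at most 500 nt had a median of 1.84 (1.25 to 9.48) and 2 of them reached 5. Over the whole list, 60.2% of the 7564 peaks over 500 nt and 19.9% of the 13163 narrower ones had a fold of at least 5. The part that width plays in the folds was not tested.

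For the sequence of the exonic parts, peaks were compared with list peaks of 60 to 250 exonic nt, of which 17 were named Fgfr2 and 10874 stood in the list as a whole (median 150 nt in each). GGACT was found in 1 of 17 (5.88%), against 13.6% of all, and GGAC, which GGACT contains, in 4 of 17 (23.5%), against 38.7%. Any of the 18 pentamers of DRACH was found in all 17, against 87.4%, at 21.5 per kb against 18.9 per kb. Motifs were searched on the strand of the gene met. Within this size class the share with GGACT was thus a single peak, that on Tacc2, and the broad class DRACH, by contrast, was found in each. The Btbd16 peak (507 exonic nt) and the wider Abraxas2 peak (840 exonic nt) fell outside the class. Each of them held 1 GGACT and 3 GGAC.

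FGF signalling runs from ligands through receptors, with heparan sulphate or Klotho co-receptors, to adaptors such as Frs2 and Grb2, and is limited by Sprouty and Spred proteins. Of 47 genes of an FGF pathway list (46 found as coding genes in the annotation), 24 (51.1%) had a peak under their own identifier, against 46.3% of all coding genes. The 24 include Fgfr2, chosen with its peaks known, and Plcg1, whose peak met no exon of Plcg1. Of the 5 receptors, 4 had a peak, Fgfr2 included. Besides Fgfr2 at 39.8, the highest fold was 92.9 for Fgfr3 (log10 p -21.2), 9.48 for Fgfr1 (log10 p -1.69) and 6.64 for Fgfrl1, which lacks the kinase domain (log10 p -2.0), and Fgfr4 was without a peak. Fgfr1 carried the same pair of values as the Dmbt1 peak.

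By role, the counts below stand against 46.3% of all coding genes with a peak and 20.1% with a peak of at least 5-fold. Among adaptors and proximal signalling genes, 7 of 10 had a peak, 5 of them at a fold of 5 or more. The highest folds were 81.6 for Cbl, a ubiquitin ligase (log10 p -18.5), 39.8 for Plcg1, a phospholipase (log10 p -8.96), and 26.6 for Ptpn11, a phosphatase (log10 p -5.48). Next were Shc1 at 9.48 (log10 p -5.21), Grb2 at 6.64 (log10 p -3.75), Sos2 at 2.31 (log10 p -9.72) and Frs2 at 2.3 (log10 p -1.81). The Plcg1 peak met no exon of Plcg1. Of the 22 Fgf genes on the list, 6 had a peak under their own identifier, 5 of them at a fold of 5 or more. The highest folds were on Fgf23 (300.0, log10 p -71.2), Fgf9 (49.3, log10 p -10.8), Fgf14 (45.5, log10 p -9.9) and Fgf10 (13.3, log10 p -2.5). Fgf1 and Fgf20 had no peak under their own identifier, though a peak met an exon of each. Of the 8 inhibitors, 6 had a peak, and 1 of them reached a fold of 5, as did 4 of 5 receptors, among which Fgfr2 was chosen with its peaks known. Of the 2 co-receptors, Kl had a peak with a fold of 9.48 and a log10 p of -1.69, the same pair of values as on Dmbt1 and Fgfr1. These folds are ratios and do not give the level of any transcript.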

How the data were processed

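MeRIP-seq was done by the authors on 2 m6A immunoprecipitates and 2 inputs of mouse NK cell RNA. Reads were aligned with HISAT2 to GRCm38, peaks were called with exomePeak and annotated with ChIPseeker, and the deposited file holds 1 row per peak. Its fold enrichment is the authors' ratio of immunoprecipitate to input, and its p-value column holds the log10 of the p-value from peak calling, handled as a score because it falls below any usual log range (to -6130.0). No column holds a value per library. Depth is therefore unknown, and the planned test per sample was not run.

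Of 20751 rows, 24 repeats were dropped, and 21 peaks carried identifiers outside the annotation and stayed out of exon counts. Members were rows named Fgfr2. A peak met an exon when they shared at least 1 nt (GENCODE vM21, any transcript, which may not be the authors' release). Among coding transcripts with an annotated 3′ UTR, the peak was placed on the one with most exonic nt in it. Overlap code was tested on simulated intervals. Sequences were read from the RefSeq GRCm38 genome. Named genes were Fgfr2, genes met by its peaks, genes with a peak in its span, and of the pathway list the receptors, the adaptors and the 5 others of highest fold. Single features outside that rule (Nf1, Ccdc106, Ctbp2, marker genes with values and genes without a peak) were named after their values were seen. The members and lists were chosen with earlier results of these data known. Analyses used Python 3.11.15, pandas 2.3.3 and numpy 2.4.6.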

Additional observations from a re-analysis of the deposited data

How the results depend on the processing

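The 21 peaks on exons of other genes were 16 when exons had to cover at least 50% of the peak, 19 on coding transcripts and 20 on coding genes. They fell to 8 with a peak-calling p-value under 0.001 and to 10 with a fold enrichment of at least 2, since these settings keep fewer peaks. The single peak on Fgfr2 exons became 0 when exons had to cover at least 50% of its span. The 22 Fgfr2 peaks in the span became 1 with the longest coding transcript, 1 without the long transcript ENSMUST00000124096 and 1 with the RefSeq span, the last chosen after seeing the data. The share with the motif was 5.88% for GGACT, 23.5% for GGAC and 100.0% for DRACH, which are broader by construction. The 14 centres in a 3′ UTR became 9 when each peak was placed on the transcript with the longest coding sequence, also chosen after seeing the data, because other peaks then lay outside that transcript or in its other parts. Of 25 alternative values for 7 results, 16 stayed within 1.5 times the value reported, among them the median fold (1.59 to 2.25) and the pathway count (16 to 25).

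No paired analysis was possible because the list gives no value per library, and no replicate was left out for lack of such values. Restriction to the strand or the exon blocks of a peak was not run, since the list has neither. A wide peak gives the outer edges of a signal, so an exon under it need not carry that signal.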

Other observations

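The name a peak received went with the Ensembl identifier number of the genes around it. Fgfr2 (ENSMUSG00000030849) has a lower number than all 15 genes met by its off-exon peaks, the nearest being Ate1 (ENSMUSG00000030850). Across the list, 567 peaks named for genes other than Fgfr2 met no exon of that gene but an exon of another, and in 567 of 567 (100.0%) the naming gene had the lower number of the pair, while it had the longer span in 87.7%. Of 5312 peaks lying in the spans of at least 2 genes, 80.5% were named for the lowest number. Of the 2910 among them that held no transcription start of the named gene, 98.3% were, and 21 of the 21 Fgfr2-named peaks in that class were. The peak on Fgfr2 exons lies in the span of Fgfr2 alone and is not counted. These values describe the list, and why the number and the name go together was not tested.

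By gene met, the Fgfr2-named peaks would add 13 genes to those with a peak under their own identifier, among them Ate1, Bub3, Oat, Fam53b, Abraxas2 and Zranb1, and would leave a single peak for Fgfr2. A count of peaks per gene taken from the assigned name gives Fgfr2 22.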
